A study of Homo sapiens with 2 samples.

Results

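The miR-99/100 and miR-125 families were described in small RNA sequencing data from hCMEC/D3, a line of immortalised endothelial cells from human brain microvessels in which the blood-brain barrier is often studied. The members were all rows of the deposited table whose precursor (hairpin) is hsa-mir-100, hsa-mir-99b, hsa-mir-99a, hsa-mir-125a, hsa-mir-125b-1 or hsa-mir-125b-2, both arms included. These were 6 of 1600 hairpins, 12 of 2363 rows and 11 of 2042 mature miRNA names. The series holds 1 group of 2 libraries, replicate 2 and replicate 8 of the same line, for which the labels name no treatment. The labels do not say whether the libraries came from separate cultures, and their extraction protocol mentions tissue, not cultured cells. With 1 group there was no comparison of conditions. The tests below compare 2 libraries with each other and hold counting error only, since the protocol mentions no molecular identifiers and amplified reads are not independent molecules.

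A miRNA hairpin is cut into a duplex whose arms are named 5p and 3p, and usually one arm is retained as the guide that silences mRNAs while the other is degraded. The guide recognises its targets mainly through its seed, bases 2 to 8, so miRNAs with the same seed form a family. The miR-99/100 family belongs to an old animal lineage that also gave miR-10, and its known targets include the mRNA of the growth kinase MTOR. The miR-125 family are the vertebrate relatives of lin-4, a miRNA that times development in nematodes. In endothelial cells miR-100 is known to restrain proliferation through MTOR, and miR-125a and miR-125b to repress endothelin. In the genome a miR-99/100 hairpin, a let-7 hairpin and a miR-125 hairpin lie together in each of 3 paralogous loci.

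The mature sequences show how the family members differ and which of them a short read can tell apart. They are from RefSeq (GRCh38.p14), which matched all 11 member names and 5 of the 6 hairpins, and each was also found within its gene in GRCh37. Capitals mark the seed, and each is written 5′ to 3′.
miR-100-5p: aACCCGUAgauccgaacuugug
miR-99a-5p: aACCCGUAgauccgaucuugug
miR-99b-5p: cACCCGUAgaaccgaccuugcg
miR-125a-5p: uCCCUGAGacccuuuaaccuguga
miR-125b-5p: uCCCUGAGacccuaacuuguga

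Counted from 1 at the 5′ end, miR-99a-5p differed from miR-100-5p by 1 of 22 bases, A16U. miR-99b-5p differed from miR-100-5p by 4 bases, A1C, U11A, A16C and U21C, none of them in the seed. Among the 2370 mature names of the RefSeq table the seed ACCCGUA was held by these 3 alone. The seed CCCUGAG was held by miR-125a-5p, miR-125b-5p and miR-4319, which had 0 counts in both libraries. miR-125a-5p has 24 bases and miR-125b-5p has 22, and they share the first 13. The hairpins mir-125b-1 and mir-125b-2 give the same miR-125b-5p, so this arm cannot be assigned to a locus. The 3p arms differ between all 6 hairpins, which makes them specific to a locus.
miR-100-3p: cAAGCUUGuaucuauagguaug
miR-99a-3p: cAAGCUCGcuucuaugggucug
miR-99b-3p: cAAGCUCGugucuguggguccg
miR-125a-3p: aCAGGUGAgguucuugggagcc
miR-125b-1-3p: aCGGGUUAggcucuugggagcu
miR-125b-2-3p: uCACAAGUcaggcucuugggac

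miR-99a-3p and miR-99b-3p share a seed and differ by 4 of 22 bases, while their seed differs from that of miR-100-3p by U7C. The 3p arms of mir-125b-1 and mir-125b-2 differ by 17 of 22 bases when both are read from base 1, but most of that is an offset: they share a run of 12 bases, which begins at base 8 of miR-125b-1-3p and base 10 of miR-125b-2-3p.

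The loci lie on chromosomes 11, 19 and 21 (GRCh37, GENCODE annotation). On the minus strand of chromosome 11, MIR100 is at 122022937 to 122023016, MIRLET7A2 at 122017229 to 122017301 and MIR125B1 at 121970465 to 121970552, so that the last begins 52.5 kb after MIR100. All are in introns of the lncRNA MIR100HG, with an exon over MIR100 in 0 of 24 spanning transcripts and over MIR125B1 in 0 of 65. On the plus strand of chromosome 19, MIR99B is at 52195865 to 52195934, MIRLET7E at 52196039 to 52196117 and MIR125A at 52196507 to 52196592, within 0.642 kb from start to start. These are intronic in SPACA6, with 0 of 2 spanning transcripts having an exon there, and the antisense lncRNA SPACA6-AS1 has an exon over each of them. On the plus strand of chromosome 21, MIR99A is at 17911409 to 17911489, MIRLET7C at 17912143 to 17912236 and MIR125B2 at 17962557 to 17962645, which begins 51.1 kb after MIR99A. Their host is the lncRNA MIR99AHG, where 0 of 128 spanning transcripts have an exon over MIR99A and 1 of 126 over MIR125B2.

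With 1 row kept per mature name, replicate 2 held 2721287 counts and replicate 8 held 2727675, so depth was nearly equal. Levels are given in CPM, counts scaled to that total. A count of 0 allows up to 3 counts, or 1.10 CPM in either library. The endothelial markers miR-126-3p and miR-126-5p summed to 110105 CPM in replicate 2 and 115735 CPM in replicate 8. Of the 4 blood markers 3 were at 0 in both libraries, and the 6 epithelial markers, of which miR-141-3p was at 0, summed to 92.2 and 42.2 CPM. The mural markers miR-143-3p and miR-145-5p summed to 834.5 and 392.6 CPM, the 3 muscle markers to 12.1 and 9.17 CPM, and miR-124-3p, a neuronal marker, stood at 3 and 1 counts. The mural, epithelial, blood, muscle and neuronal sums were therefore all higher in replicate 2, as were 4 of the members' 5p arms below, and their part in these differences was not tested.

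The 6 hairpins held a large share of the miRNA counts in this line. They took 18.9% of all counts in replicate 2, with a 95% Wilson interval of 18.8% to 18.9%, and 17.7% in replicate 8, with one of 17.7% to 17.8%. The miR-99/100 family took 16.0% and 15.7%, a mean of 15.9% ± 0.196 (SD, n = 2). The miR-125 family took 2.90% and 2.01%, a mean of 2.45% ± 0.63 (SD, n = 2). Within the members, the miR-99/100 family held 84.7% of counts in replicate 2 and 88.7% in replicate 8. Most of this came from a single pair: miR-100-5p and miR-99b-5p together made up 82.6% and 86.6% of the members' counts.

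**Figure D1:**
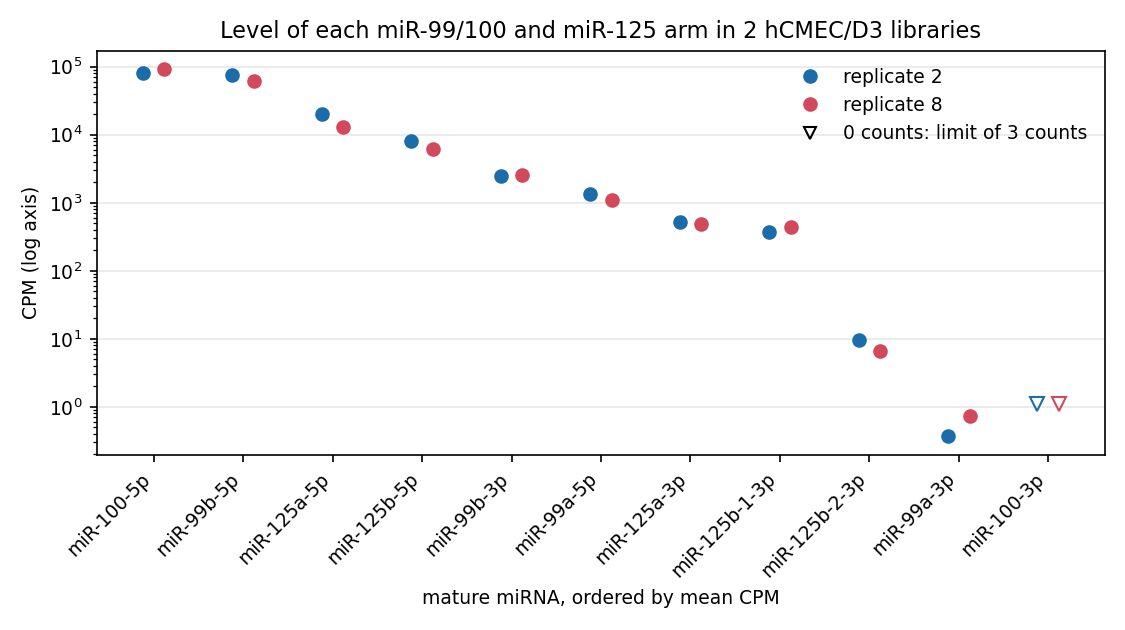
Level of each of the 11 member arms in CPM (log axis) in replicate 2 (blue) and replicate 8 (red), ordered by mean; each point is 1 library, and open triangles mark the 3-count limit of an arm with 0 counts. The 5p arms of mir-100 and mir-99b lie between 61366 and 92174 CPM, while the 3p arms of mir-99a and mir-100 lie at or under the limit.

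Among the miR-99/100 guides, miR-100-5p from chromosome 11 was the highest, counted 222011 times in replicate 2 and 251421 times in replicate 8. It ranked at place 2 of all 2042 names in both libraries, at 86879 ± 7489 CPM (SD, n = 2). miR-99b-5p from chromosome 19 had 202857 and 167387 counts, which placed it at 3 and 5 and gave 67955 ± 9318 CPM. The libraries did not overlap between these arms, but in replicate 2 they were close: the ratio of miR-100-5p to miR-99b-5p was 1.09 in replicate 2 and 1.50 in replicate 8. miR-99a-5p from chromosome 21 was far lower, with 3640 and 2972 counts, at places 77 and 82 and 1214 ± 175 CPM.

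Among the miR-125 guides, miR-125a-5p from chromosome 19 reached 54135 counts in replicate 2 against 35291 in replicate 8, at places 14 and 20 and 16416 ± 4918 CPM. miR-125b-5p had 22288 and 16939 counts in its mir-125b-1 row, at places 25 and 28 and 7200.2 ± 1400.2 CPM. The mir-125b-2 row of the same name held 22225 and 16879 counts, that is 63 and 60 fewer, so these rows list nearly the same reads. miR-125a held 70.4% of the family's counts in replicate 2 and 66.9% in replicate 8, with a mean of 68.7% ± 2.51 (SD, n = 2). When the repeated rows were summed this share was 53.0%, since miR-125b-5p then counts at both hairpins.

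Between neighbours in the order of mean level, the ranges of the libraries did not overlap for any pair. Below the miR-125 guides came miR-99b-3p, then miR-99a-5p, miR-125a-3p, miR-125b-1-3p and miR-125b-2-3p. The last places, miR-99a-3p with 1 and 2 counts and miR-100-3p with 0, were both under 3 counts and cannot be ordered. These levels compare miRNAs of similar length, but adaptor ligation and amplification also act on sequence, so a count compares the same arm between libraries more safely than different arms within a library.

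The loci were compared through the arms that belong to only 1 of them. Of the miR-99/100 counts, chromosome 11 (miR-100) gave 51.0% in replicate 2 and 58.6% in replicate 8, chromosome 19 (miR-99b) gave 48.2% and 40.7%, and chromosome 21 (miR-99a) gave 0.836% and 0.694%. The means were 54.8% ± 5.40, 44.4% ± 5.30 and 0.765% ± 0.101 (SD, n = 2). By counts, miR-100 and miR-99b thus held nearly all of the family, with miR-100 the higher in both libraries, and miR-99a held under 1%. These shares compare different arms, whose counts also depend on ligation and amplification, so they do not directly measure the output of a locus.

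The other arms from chromosome 21 were also low beside their relatives. Of the 3p counts of miR-125b, the chromosome 11 arm miR-125b-1-3p made up 1012 in replicate 2 and 1183 in replicate 8. The chromosome 21 arm miR-125b-2-3p had 26 and 18, a share of 2.50% (95% Wilson interval 1.72 to 3.64) and 1.50% (0.950 to 2.36). These 3p counts also depend on how often each hairpin keeps its 3p arm, which is not known, so they are no direct measure of a locus. The share of miR-99a-5p in the sum of miR-99a-5p and miR-100-5p was of the same order, at 1.61% (1.56 to 1.67) and 1.17% (1.13 to 1.21). For let-7, let-7c from chromosome 21 had 3.09% and 2.80% of the sum with let-7a-5p, although let-7a-5p is listed at 3 hairpins. Since miR-99a-5p and let-7c each differ by 1 base from an abundant relative (let-7c from let-7a-5p by A19G), misread or mismatched reads of that relative can enter their counts, and their part was not tested.

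**Figure D2:**
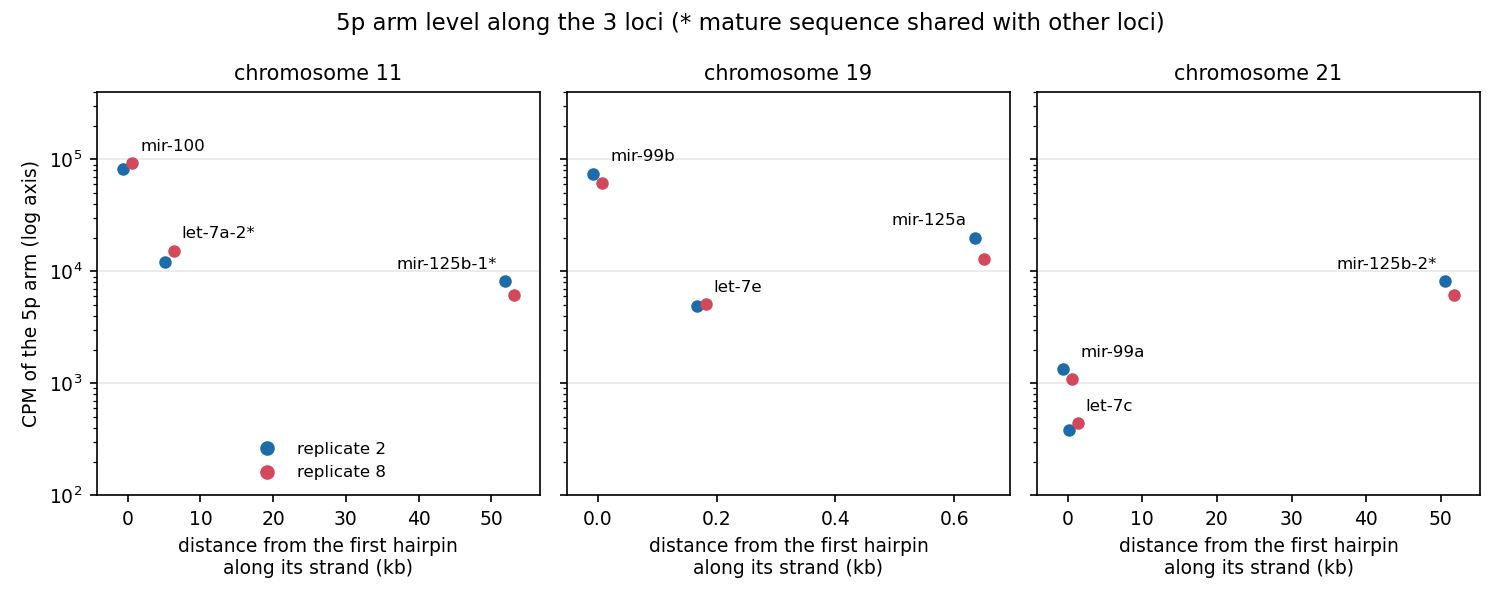
Level of the 5p arm (CPM, log axis) at each hairpin of the 3 loci against distance from the first hairpin along its strand (kb, a different scale in each panel); blue is replicate 2 and red is replicate 8, set apart sideways for legibility, and an asterisk marks a mature sequence that is shared with hairpins outside the locus and so is drawn at its full level at each. miR-99a and let-7c, which are specific to chromosome 21, lie between 385 and 1338 CPM, and miR-100, miR-99b and miR-125a all lie at 12938 CPM or above.

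Within each locus the miR-99/100 guide exceeded the miR-125 guide on chromosomes 11 and 19. On chromosome 19, where every hairpin has its own mature sequence, miR-99b-5p was 3.75 times miR-125a-5p in replicate 2 and 4.74 times in replicate 8. The intervening let-7e-5p, with 13247 and 13908 counts, was lower than both: miR-99b-5p was 15.3 and 12.0 times let-7e-5p. Since let-7e-5p differs by 1 base from the more abundant let-7a-5p, misread or mismatched reads of that relative can enter its count, which was not tested. On chromosome 11, miR-100-5p was 9.96 times miR-125b-5p in replicate 2 and 14.8 times in replicate 8, with all counts of miR-125b-5p given to this locus. On chromosome 21, the same treatment put miR-99a-5p at 0.163 and 0.175 times miR-125b-5p. Dividing miR-125b-5p between its hairpins in proportion to their 3p arms turned this direction, with miR-99a-5p at 6.52 and 11.7 times its share. That value rests on the 26 and 18 counts of miR-125b-2-3p and on the assumption that both hairpins keep their 3p arm equally often.

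The 5p arm was the more abundant at the 4 hairpins whose arms are both their own, mir-100, mir-99b, mir-99a and mir-125a. The rows of mir-125b-1 and mir-125b-2 each list miR-125b-5p in full, so their arm shares are those of the table and not of the hairpin. For mir-99b the 3p arm was counted 6764 and 6955 times in replicates 2 and 8, which was 3.23% and 3.99% of the hairpin's counts, with 95% Wilson intervals of 3.15 to 3.30 and 3.90 to 4.08. For mir-125a it had 1422 and 1339 counts, or 2.56% (2.43 to 2.69) and 3.66% (3.47 to 3.85). In the mir-125b-1 rows it was 4.34% (4.09 to 4.61) and 6.53% (6.18 to 6.90). The 3p arm made up 0.027% and 0.067% at mir-99a, with 1 and 2 counts, and was not counted at mir-100. In the mir-125b-2 rows it was 0.117% and 0.107%, a value that depends on how much of miR-125b-5p comes from this hairpin, which is not known.

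The 0 counts of miR-100-3p stood against the highest guide of the family. They allow a 3p share of up to 0.00135% in replicate 2 and 0.00119% in replicate 8, so in the counts miR-100-5p was at least 74004-fold and 83807-fold higher than its 3p arm (3 counts per library). These limits cover counting error only: whether the authors' counting could have missed this arm cannot be told from the table, and they are no measure of arm choice in the cells if it did. Of 42 hairpins whose major arm had at least 10000 counts in both libraries, 2 had no count of the other arm in either, mir-100 and mir-92a-2, the latter named after its value was seen. The major arm of mir-92a-2, miR-92a-3p, is also listed at mir-92a-1, so how much of it comes from mir-92a-2 is not known. Other hairpins among the 42, such as those of let-7a-5p and miR-125b-5p, also list a shared arm in full, so their shares are those of the table. The median share of the minor arm over these 42 was 0.292%, and mir-125a, mir-99b and mir-125b-1 lay above it at places 32, 33 and 37 from the lowest. The hairpins of mir-100 and mir-99b, with both mature arms in capitals, show the closely related duplexes that gave these different counts.
mir-100: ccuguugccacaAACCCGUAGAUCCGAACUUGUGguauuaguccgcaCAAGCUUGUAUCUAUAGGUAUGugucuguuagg
mir-99b: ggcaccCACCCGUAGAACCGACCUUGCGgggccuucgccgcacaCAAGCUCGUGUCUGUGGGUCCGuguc

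The base at the 5′ end, known to influence loading into Argonaute, differed among the members' major arms: miR-100-5p and miR-99a-5p begin with A, miR-99b-5p with C, and the miR-125 guides with U. Over 185 hairpins with both arms in RefSeq and at least 50 counts in each library, the major arm began with U in 56.8%, with A in 22.7% and with C in 15.1%. miR-99b-5p and miR-99b-3p both begin with C and have the same GC content, 63.6%, the highest among the member arms.

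The 5p share was lower in replicate 8 than in replicate 2 at mir-99b, mir-125a and mir-125b-1. By Fisher's exact test, adjusted by the Benjamini-Hochberg method over 212 hairpins with at least 50 counts in each library, 40 hairpins (18.9%) differed, 21 with a higher 5p share in replicate 8 (9.91%) and 19 with a lower one (8.96%). Of the 6 member hairpins, 3 passed, all lower in replicate 8. Hairpins with many counts can pass at small differences, so this count cannot be read as an excess over the share among all hairpins. The share in replicates 2 and 8 was 96.8% and 96.0% at mir-99b (adjusted p = 8.4e-35, Fisher's exact test), 97.4% and 96.3% at mir-125a (1.1e-19) and 95.7% and 93.5% at mir-125b-1 (5.7e-21). Their differences of -0.763, -1.10 and -2.18 percentage points compare with a median absolute difference of 0.758 over all 212 hairpins. At mir-99a, mir-100 and mir-125b-2 the differences in 5p share were -0.0398, 0 and 0.0103 percentage points and did not pass.

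**Figure D3:**
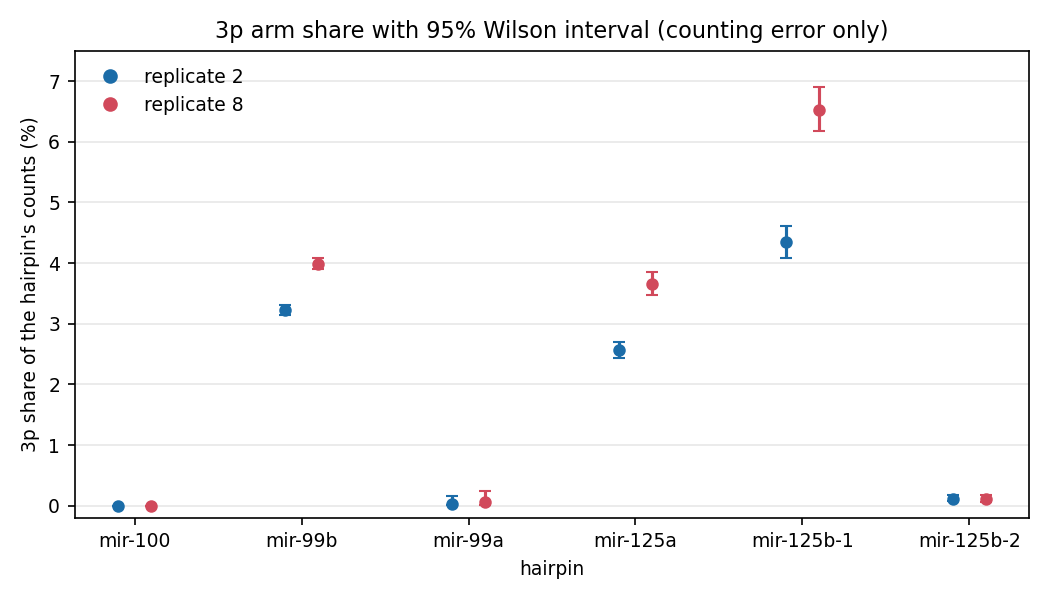
Share of each member hairpin's counts held by its 3p arm (percent) in replicate 2 (blue) and replicate 8 (red), with 95% Wilson intervals that cover counting error only. mir-99b, mir-125a and mir-125b-1 lie between 2.56% and 6.53% with the red point higher, and mir-100 and mir-99a lie at or near 0; mir-125b-1 and mir-125b-2 are both drawn with all counts of miR-125b-5p, which sets the low place of mir-125b-2.

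The libraries were next compared arm by arm with a two-sided exact binomial test of the count in replicate 8 given the sum over both, adjusted by the Benjamini-Hochberg method over the 695 names with at least 10 summed counts. Over all names 238 (34.2%) differed, 75 higher in replicate 8 (10.8%) and 163 lower (23.5%). Of the 11 member names 9 reached 10 counts, and 6 of them passed, 2 higher and 4 lower in replicate 8. Since abundant names pass at small differences, this count cannot be read as an excess over the share among all names. The median log2 ratio (replicate 8 over replicate 2, with 0.5 counts added) was -0.28 over the 9 and -0.11 over all tested. With TMM-scaled library sizes, which raise every ratio by 0.087 log2 units, 32.2% of all names passed, 15.1% higher and 17.1% lower, and 7 members did.

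All 5 member guides differed between the libraries, and 4 of them were lower in replicate 8. Abundant names pass at small differences: miR-126-3p passed at a log2 ratio of 0.073 and miR-22-3p at 0.072, while miR-221-3p did not at -0.023. That all 5 passed therefore does not set these guides apart from other abundant names. The log2 ratio of miR-125a-5p was -0.62 (95% interval -0.64 to -0.60), larger in size than that of 87.2% of the 367 names with at least 100 summed counts. For miR-125b-5p it was -0.40 (-0.43 to -0.37, exact binomial adjusted p = 3.9e-162), for miR-99a-5p -0.30 (-0.37 to -0.23, adjusted p = 1.2e-15) and for miR-99b-5p -0.28 (-0.29 to -0.27). miR-100-5p went the other way, with a log2 ratio of 0.18 (0.17 to 0.18). The median absolute log2 ratio over the 367 names was 0.21. With library totals, miR-125a-5p and miR-125b-5p lay well above it, miR-99a-5p and miR-99b-5p somewhat above it and miR-100-5p below it. This placing depends on the scaling, and the median was not computed for other scalings. With TMM sizes miR-100-5p was at 0.26, miR-125b-5p at -0.31, miR-99a-5p at -0.21 and miR-99b-5p at -0.19. With DESeq2 size factors these were at 0.29, -0.29, -0.18 and -0.17, in the same order. miR-125a-5p remained the largest in size, at -0.53 and -0.51.

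Of the 6 member 3p arms 4 were tested and 1 passed. miR-125b-1-3p was higher in replicate 8 by 0.22 on the log2 scale (0.10 to 0.34; adjusted p = 0.0015, exact binomial test), although the 5p arm was lower. The ratio was 0.04 for miR-99b-3p (-0.01 to 0.09), -0.09 for miR-125a-3p (-0.20 to 0.02) and -0.52 for miR-125b-2-3p (-1.49 to 0.39), and none of these passed. The direction of miR-125a-3p and the call of miR-99b-3p depend on the scaling: with DESeq2 size factors the former was at 0.023, and miR-99b-3p passed at 0.12 with TMM sizes (exact binomial adjusted p = 4.0e-06) and at 0.15 with DESeq2 size factors (9.7e-09).

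**Figure D4:**
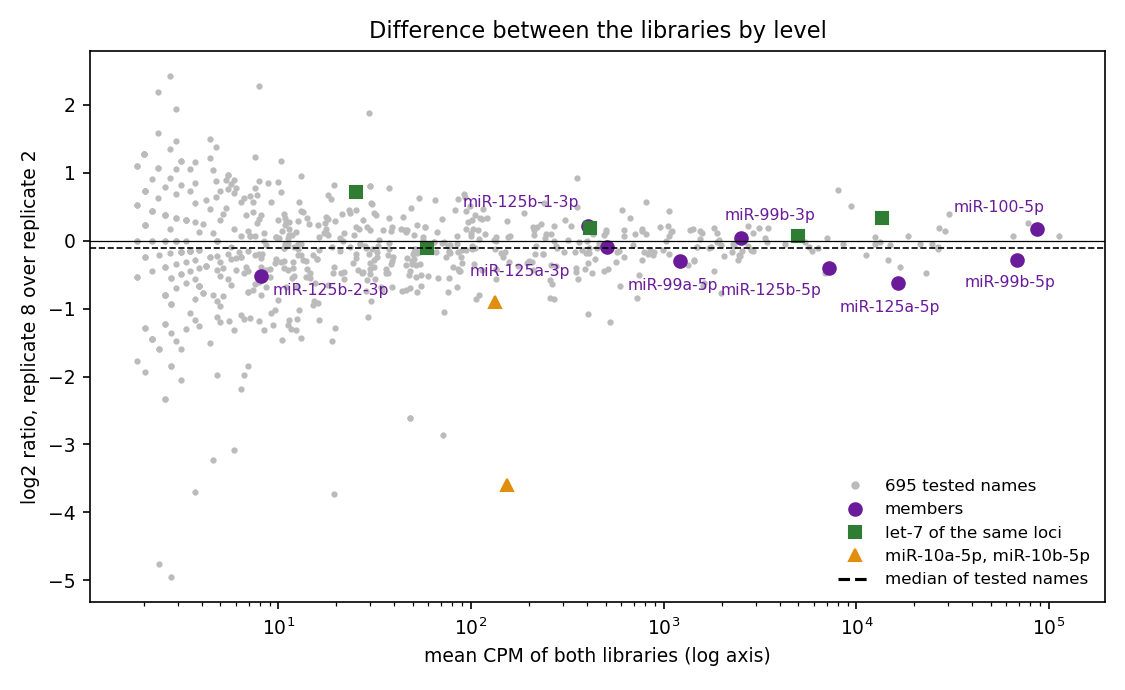
Log2 ratio of replicate 8 over replicate 2 against mean CPM (log axis) for the 695 tested names (grey), with members (purple), let-7 arms of the same loci (green) and miR-10a-5p and miR-10b-5p (orange); the dashed line is the median of all tested names, -0.11. Of the 5 member guides only miR-100-5p lies above 0, and both miR-10 arms lie below every tested member arm.

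Ratios between members within a library do not depend on library size, and several of them moved between the libraries. The change in the log2 ratio of miR-100-5p to miR-99b-5p was 0.46 (95% interval 0.44 to 0.47), and to miR-99a-5p it was 0.47 (0.40 to 0.54). The ratio of miR-99b-5p to miR-99a-5p, which come from different chromosomes, was 55.7 in replicate 2 and 56.3 in replicate 8, a change of 0.015 (-0.055 to 0.086). For miR-125a-5p to miR-125b-5p the change was -0.22 (-0.26 to -0.19). Within the loci, the miR-99/100 to miR-125 ratio was higher in replicate 8 by 0.58 (0.55 to 0.61) on chromosome 11, by 0.34 (0.32 to 0.36) on chromosome 19 and by 0.10 (0.028 to 0.18) on chromosome 21. The values for chromosomes 11 and 21 take all of miR-125b-5p, and with it divided by the 3p arms the log2 ratio on chromosome 21 was 2.70 in replicate 2 and 3.55 in replicate 8. Ratios with the let-7 guides also moved. That of miR-99b-5p to let-7e-5p changed by -0.35 (-0.38 to -0.31) and that of let-7e-5p to miR-125a-5p by 0.69 (0.65 to 0.73). The ratio of miR-99a-5p to let-7c changed by -0.48 (-0.62 to -0.35). For miR-100-5p to let-7a-5p, which is listed at 3 hairpins, the change was -0.16 (-0.18 to -0.14). Within a locus, the 3p arms gave smaller or less certain changes. The ratio of miR-99b-3p to miR-125a-3p changed by 0.13 (0.0089 to 0.24) and that of miR-99b-3p to let-7e-3p by 0.14 (-0.18 to 0.46). That of miR-125b-1-3p to let-7a-2-3p changed by -0.50 (-1.01 to 0.011), so the last 2 intervals include 0. Between loci, the ratio of miR-125a-3p to miR-125b-1-3p changed by -0.31 (-0.47 to -0.15). That of miR-99b-3p to miR-125b-1-3p changed by -0.19 (-0.32 to -0.055) and that of miR-125b-1-3p to miR-125b-2-3p by 0.76 (-0.12 to 1.63). Intervals here hold counting error only.

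The let-7 arms of the same loci were listed with the members. Of 5 names all were tested and 4 passed, all higher in replicate 8, with a median log2 ratio of 0.19 beside -0.11 over all names. Over all 695 tested names 34.2% passed and 10.8% were higher in replicate 8, but abundant names pass at small differences. let-7e-5p, from between MIR99B and MIR125A, had a log2 ratio of 0.067 (0.032 to 0.10), against -0.28 and -0.62 for its neighbours. It differs from the more abundant let-7a-5p by 1 base, U9G, and the part of let-7a-5p reads in its count was not tested. let-7a-2-3p, the arm specific to chromosome 11, had 52 and 86 counts, a difference of 0.72 on the log2 scale (0.21 to 1.25; adjusted p = 0.016, exact binomial test). For let-7c it was 0.19 (0.068 to 0.31) and for let-7a-5p 0.33 (0.31 to 0.36), whereas let-7e-3p did not pass at -0.10 (-0.43 to 0.22).

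The miR-10 relatives were low. The mature miR-10a-5p, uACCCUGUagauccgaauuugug, shares a run of 11 bases with miR-100-5p, which begins at base 6 of miR-100-5p and base 7 of miR-10a-5p, but its seed differs. It was counted 470 times in replicate 2 and 253 times in replicate 8, at 133 ± 56.5 CPM (SD, n = 2), while miR-10b-5p had 777 and 64. Both passed, with log2 ratios of -0.90 (-1.12 to -0.67) and -3.59 (-4.00 to -3.24). Over all tested names 23.5% passed as lower in replicate 8. By these counts the miR-99/100 members held nearly all counts of this lineage in both libraries.

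Other miRNAs with the most similar levels were found by the distance in log2 CPM over the 2 libraries, for the 8 member arms with at least 100 summed counts. For miR-100-5p the nearest was miR-21-5p at a distance of 0.25, and for miR-99b-5p it was miR-22-3p at 0.26. miR-125a-5p was nearest to miR-191-5p (0.19), miR-125b-5p to miR-361-3p (0.038) and then miR-27a-3p (0.12), and miR-99a-5p to miR-92b-3p (0.032). Of the 3p arms, miR-99b-3p was nearest to miR-425-5p (0.013), miR-125a-3p to miR-584-5p (0.14) and miR-125b-1-3p to let-7c (0.053). A likeness over 2 libraries describes level and the difference between them, and nothing more.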

How the data were processed

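Per the labels' protocols, adaptors were ligated to small RNAs from total RNA, cDNA was amplified by PCR and the miRNA fraction was selected on a gel. Per the submitters' processing notes, CASAVA 1.9, FastQC, cutadapt, Bowtie 0.12.7 and hg19 were used, with no role stated, so the mismatches allowed and the treatment of multiply mapped reads are not given in the sources used here. The authors deposited raw counts and RPM values per mature miRNA and hairpin. The deposited RPM equal the counts divided by 3180045 (replicate 2) and 3205752 (replicate 8), 0.40% and 0.33% above the sums of the count columns, which contain repeated rows.

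Where a name has several hairpins, only its highest row by mean count was kept, and CPM were computed on these totals (2721287 and 2727675). Exact binomial and Fisher's exact tests (SciPy 1.17.1, Python 3.11.15) were adjusted over all features, with a threshold of 0.05. They were also run on simulated data that held counting error only. Such data cannot show how the tests behave when libraries vary beyond counting error. edgeR's quasi-likelihood test needs residual degrees of freedom within 2 groups and was not run. TMM factors (edgeR 4.0.16) and DESeq2 1.42.0 size factors were alternatives. Intervals and limits cover counting error only. The members, lists and tests were chosen with earlier results of these data known. The named miRNAs were the members, the let-7 hairpins of the same loci, miR-10a, miR-10b and the 2 nearest names of each arm with at least 100 summed counts. There were 0 value columns of other samples. Positions are from GENCODE on GRCh37, which is the hg19 assembly.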

Additional observations from a re-analysis of the deposited data

How the results depend on the processing

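The miR-99/100 share of all counts was 13.6% with repeated rows summed, 13.5% on deposited RPM and 15.6% with 5p arms alone, which change the denominator or drop arms by construction. With 3p arms alone the miR-99/100 counts came to 0% from chromosome 11, 99.98% from chromosome 19 and 0.022% from chromosome 21, and miR-125a held 55.3% of miR-125 counts. It held 53.0% with repeated rows summed. Dividing miR-125b-5p by its 3p arms turned the log2 ratio of miR-99a-5p to miR-125b-5p on chromosome 21 from -2.56 to 3.13. With DESeq2 size factors miR-125a-3p went from -0.09 to 0.023, neither passing. The count of members that differed was 6 or 7, and that of hairpins 3 throughout. Filters on low counts cannot change a log2 ratio, nor deposited RPM a share within a family beyond rounding. Leaving out 1 of 2 libraries only returns the value of the other and shows nothing about stability. No paired analysis was possible because there is 1 group, so no replicate numbers are shared between groups. Depth limits miR-100-3p, miR-99a-3p and miR-125b-2-3p.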
